A study of Mus musculus with 2 samples.

Results

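The genes described here are those that carry signals from Toll-like receptors and TNF receptors to the transcription factor NF-kB in mouse liver. They were chosen by symbol alone: every Tlr, Irak, Traf, Nfkb, Rel, Ikbk, Tnfrsf, Tnfaip, Ripk and Birc gene of the deposited table, with Myd88, Ticam1, Ticam2 and Tirap. This rule found 43 of the 8551 genes listed, and Ticam2 was not among them. The livers came from 9-week-old male mice on a C57BL/6 background, either wild type (Normal) or db/db (Diabetes), a homozygous defect of the leptin receptor that leads to obesity and type 2 diabetes. They were taken about 3 h into the light phase, and both groups were fed chow freely. There was 1 library per group, so none of the differences below has a replicate check, and it is not stated whether RNA of several mice was pooled. Since the mice came from several suppliers, a difference of genotype and one of source cannot be told apart here.

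Toll-like receptors sense microbial molecules, and TNF receptors sense cytokines of the TNF family. Both recruit adaptors, TRAF ubiquitin ligases and kinases of the IRAK and RIP families, which activate the IKK complex. IKK marks the IkB proteins for destruction, and the freed NF-kB dimers enter the nucleus and switch on genes of inflammation and survival, among them their own inhibitors. In liver this pathway acts in hepatocytes, Kupffer cells and endothelial cells alike, and a whole-liver library does not separate them.

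Each value is the number of a gene's tags for every 1000000 clean tags in the library, called TPM by the authors. It came from digital gene expression, in which cDNA is cut at the DpnII site GATC and a short tag beside the cut is sequenced and counted. The deposited values rose in equal steps, from which 10278531 clean tags were computed for Normal and 13508232 for Diabetes, so that 1 read was worth 0.0973 and 0.0740 TPM. The 43 genes held 2697 reads in Normal and 4002 in Diabetes. They were low in abundance, with a median over genes of 31 reads in Normal and 47 in Diabetes, against 71 and 111 over all listed genes. The lowest values were 8 reads in Normal (Tnfrsf21) and 9 in Diabetes (Tlr12), so each of the 43 genes was counted in both libraries.

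To show what was counted, the last GATC with the 17 bases after it was read from the principal transcript of each gene in the GENCODE annotation (GRCm38). These tags were computed from the annotation, not measured, and the protocol may also yield tags at other GATC sites. A full tag was found for 42 of the 43 genes, 31 of them in the 3′ UTR, and 41 of the 42 tags occurred beside a GATC in transcripts of a single gene. The exception was Birc2, whose tag was also held by transcripts of its neighbour Birc3 and of Gm7019, so the counts of Birc2 are uncertain. Traf5 had no complete tag, because its last GATC lay too near the end of the transcript. The tags of the 4 genes on which the NF-kB results turn and of Birc3 are given, with the cut site in capitals.
Rela tag: GATCcaaagcagtgctcccaa
Nfkb2 tag: GATCcctctgtacagcatccc
Nfkb1 tag: GATCacatttgctttgtgttg
Nfkbia tag: GATCactgaaattcaaagaaa
Birc3 tag: GATCtagcactaatccggaag
The Rela tag lies at chr19:5647790-5647810 on the plus strand and the Nfkb2 tag at chr19:46311919-46311939 on the plus strand. The Nfkb1 tag lies at chr3:135585054-135585074 and the Nfkbia tag at chr12:55489710-55489730, both on the minus strand. These 4 are in the 3′ UTR. The Birc3 tag at chr9:7851149-7851169 on the minus strand is in coding sequence.

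In the deposited values 10 of the 43 genes, 23.3%, differed between the libraries, where a gene was called when its fold change was at least 1.5 and its false discovery rate (FDR) in an exact binomial test was under 0.001. Over all listed genes 31.0% were called. Higher in Diabetes were Tnfrsf1a, Myd88, Ikbkg, Traf7, Birc3, Nfkbia and Ripk2, which is 7 of 43 or 16.3%, against 22.9% of all genes. Lower were Tlr12, Nfkb2 and Rela, which is 3 of 43 or 6.98%, against 8.19% of all genes. By fold alone 17 genes were at least 1.5-fold higher and 8 at least 1.5-fold lower, 39.5% and 18.6%, against 34.4% and 15.3% of all genes. The called shares thus lay under those of the whole table, and the shares by fold alone lay somewhat over them. Of the 16 genes that averaged 5 TPM or more 37.5% were called, and of the 27 below it 14.8%, against 40.6% and 15.4% of all genes in the same ranges. The exact test compares 2 libraries and not 2 conditions.

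The scale between the libraries decides most of the higher calls. The median log2 ratio (Diabetes over Normal) was 0.25 over the 43 genes and 0.25 over all genes, and scaling by trimmed mean of M values (TMM) took 0.25 off every log2 ratio. After TMM scaling 1 of the 43 genes, Traf7, was still called higher, 2.33% against 14.9% of all genes. Called lower were 7, namely Tlr12, Tlr3, Nfkb2, Rela, Nfkb1, Tnfaip2 and Ripk4, 16.3% against 13.4%. Tlr12, Nfkb2, Rela and Traf7 were called under the deposited values and under each of 3 other scalings. For this reason the log2 ratio after TMM scaling is given for each of the 43 genes whose call it changed.

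**Figure D1:**
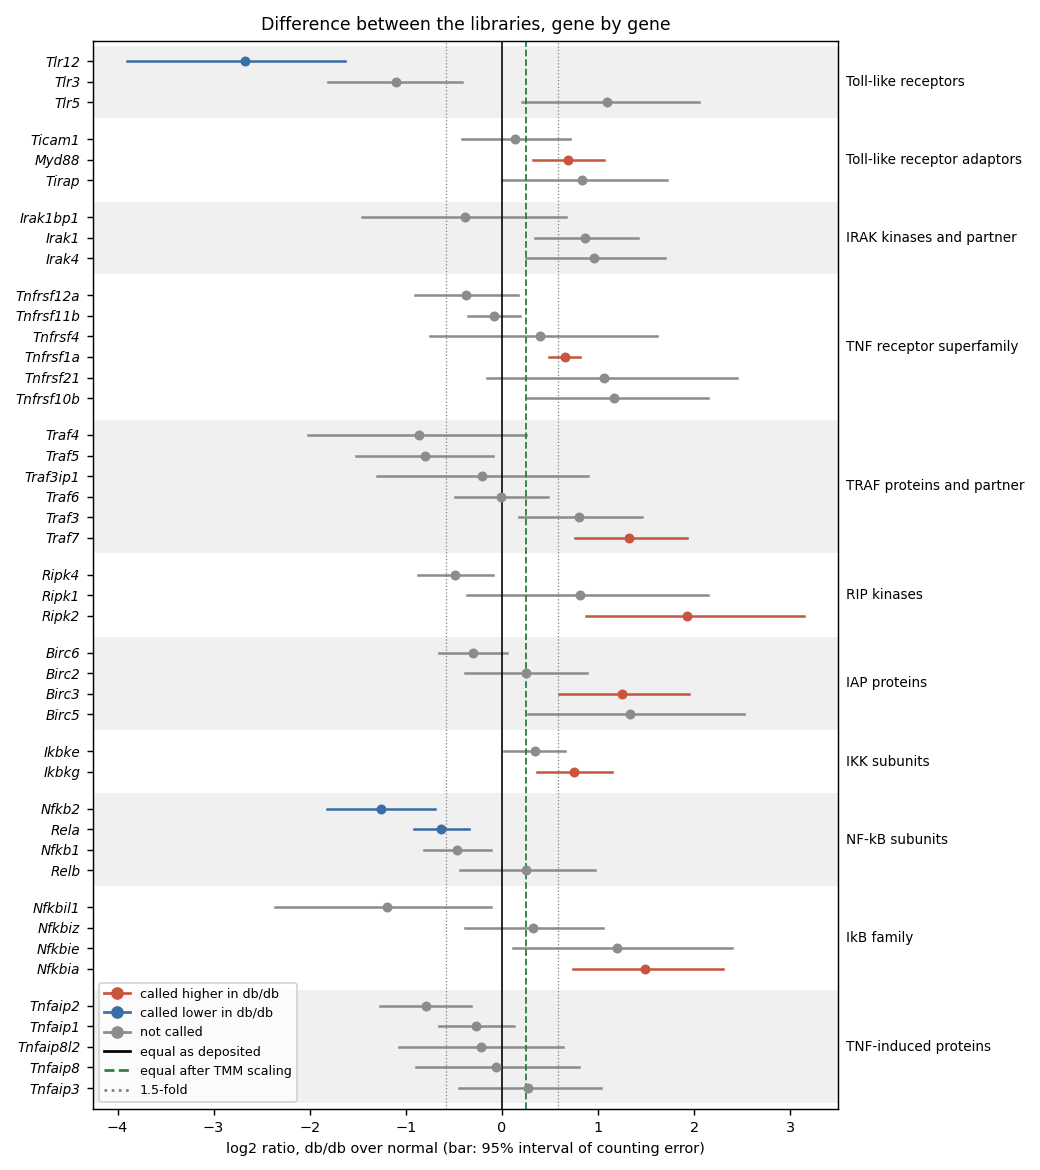
Log2 ratio of Diabetes (db/db) over Normal for each of the 43 genes, grouped by role, from 1 library per group; bars are 95% intervals of counting error, red and blue points are the 7 genes called higher and the 3 called lower, and the dashed line is equality after TMM scaling. Tlr12 is farthest to the left at -2.68 and Ripk2 farthest to the right at 1.92, and Nfkb2 and Rela lie left of equality while Nfkbia lies right of it.

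Among the NF-kB subunits, the transcripts of 2 of 4 fell and 0 rose, against 8.19% called lower and 22.9% called higher over all genes. Rela, the main activating subunit, was at 21.9 TPM (225 reads) in Normal and at 14.1 TPM (191 reads) in Diabetes. It was 1.55-fold lower, with a log2 ratio of -0.63 (95% interval, -0.92 to -0.35, exact binomial FDR 3.27e-05), and -0.88 after TMM scaling. Nfkb2, the precursor subunit of the non-canonical pathway, was at 7.59 TPM (78 reads) and at 3.18 TPM (43 reads). Its 2.39-fold lower level gave a log2 ratio of -1.26 (95% interval, -1.83 to -0.70, FDR 1.15e-05 in the exact test), and -1.51 after TMM scaling. Nfkb1, the precursor of the usual partner of RelA, was at 13.9 and 10.1 TPM (143 and 136 reads). Its log2 ratio of -0.47 (95% interval, -0.82 to -0.12) lay within 1.5-fold and was not called, while the -0.72 after TMM scaling was. Relb, the partner of the processed Nfkb2 product, was at 2.92 and 3.48 TPM (30 and 47 reads). With a log2 ratio of 0.25 (95% interval, -0.44 to 0.97) it was at the median of all genes, and its sign turned under 2 of the 3 other scalings. Rel was not analysed here. Summed over the 4 subunits 46.3 TPM in Normal stood against 30.9 TPM in Diabetes, or -0.59 in log2 ratio (95% interval, -0.78 to -0.39).

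Of the 4 genes of the IkB family 1 rose, 25.0% against 22.9% of all genes, and 0 fell as deposited. After TMM scaling 0 of them were called, against 14.9% of all genes called higher and 13.4% called lower. Nfkbia, which encodes IkB alpha and is itself an NF-kB target, rose from 1.85 TPM (19 reads) to 5.18 TPM (70 reads). That is 2.80-fold, a log2 ratio of 1.49 (95% interval, 0.74 to 2.30, exact binomial FDR 7.11e-05). After TMM scaling the log2 ratio was 1.23 and the exact test gave an FDR of 0.0013, just short of the threshold. Nfkbie, which encodes IkB epsilon, was at 0.97 and 2.22 TPM (10 and 30 reads), a log2 ratio of 1.19 (95% interval, 0.12 to 2.39) that was not called. Nfkbiz, an atypical nuclear IkB that works with NF-kB on DNA, was at 2.72 and 3.41 TPM (28 and 46 reads). Nfkbil1, named for its likeness to IkB, was at 2.04 and 0.89 TPM (21 and 12 reads), a log2 ratio of -1.20 (95% interval, -2.36 to -0.11) that was not called either. In Normal 19 reads of Nfkbia stood beside 225 of Rela, and in Diabetes 70 stood beside 191.

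Because a share of reads within a library is untouched by any scaling between libraries, the reads of the 43 genes were also divided by role. NF-kB subunits took 17.6% of these reads in Normal (476 of 2697, 95% Wilson interval 16.3% to 19.1%) and 10.4% in Diabetes (417 of 4002, 9.51% to 11.4%). Toll-like receptors took 4.0% (95% Wilson interval, 3.33% to 4.81%) and 2.02% (1.63% to 2.51%). TNF-induced proteins took 10.1% and 7.15%. The share of the TNF receptors was larger in Diabetes, 33.9% against 28.4%, and that of the IKK subunits was 10.05% against 7.97%. The adaptors took 5.82% in Normal and 7.62% in Diabetes, and the IRAK genes 3.11% and 4.52%. For the IkB family, at 2.89% and 3.95%, and for RIP kinases, IAP proteins and TRAF proteins the Wilson intervals of the libraries overlapped. Tnfrsf1a alone held 464 and 957 reads, and without it the NF-kB subunits took 21.3% and 13.7% and the TNF receptors 13.5% and 13.2%. Without it the IkB family took 3.49% (95% Wilson interval, 2.81% to 4.34%) and 5.19% (4.46% to 6.03%), intervals that did not overlap. The lower share of NF-kB subunits thus did not rest on Tnfrsf1a, while the larger share of TNF receptors did.

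**Figure D2:**
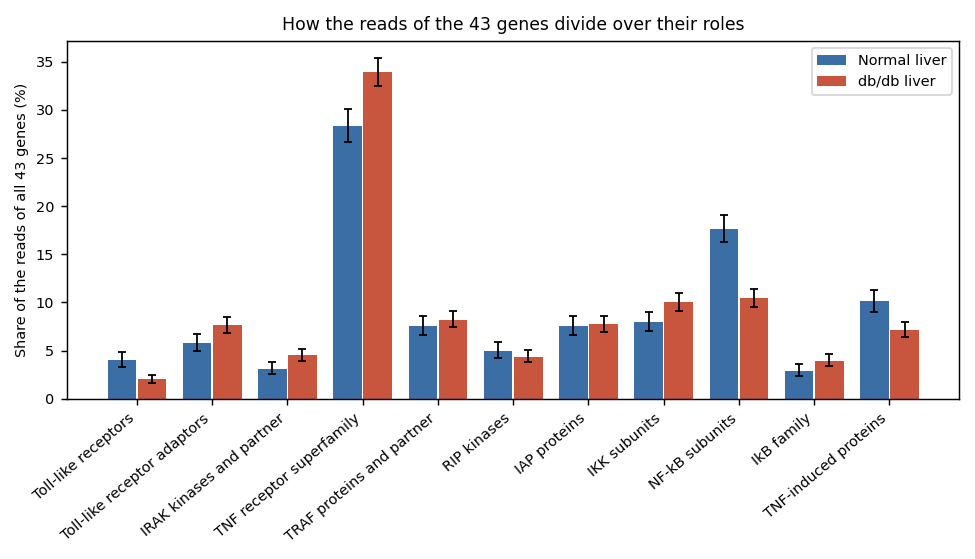
Share of the reads of all 43 genes, in percent, that fell on each role in Normal (blue) and Diabetes (red), 1 library each; error bars are 95% Wilson intervals of counting error. NF-kB subunits go from 17.6% to 10.4% and Toll-like receptors from 4.0% to 2.02%, with intervals that do not overlap.

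Upstream of the inhibitors, the IKK complex pairs catalytic kinases with a scaffold. The scaffold gene Ikbkg, which encodes NEMO, was at 7.98 TPM (82 reads) and rose to 13.4 TPM (181 reads), with a log2 ratio of 0.75 (95% interval, 0.36 to 1.14, exact binomial FDR 2.40e-04). It was not called after TMM scaling, at 0.49. Ikbke, an IKK-related kinase better known for the interferon response, was at 12.9 and 16.4 TPM (133 and 221 reads), a log2 ratio of 0.34 that was 0.09 after TMM scaling. Chuk, the gene of IKK alpha, whose symbol falls outside the rule, rose from 28.7 TPM to 64.0 TPM. Its 295 and 864 reads gave a log2 ratio of 1.16 (95% interval, 0.96 to 1.35), which was 0.90 and still called after TMM scaling. Ikbkb was not analysed here.

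Of the Toll-like receptors 3 were listed, and 1 fell, against 8.19% of all genes. Tlr12, a receptor for profilin of protozoan parasites, was at 4.28 TPM (44 reads) in Normal and at 0.67 TPM (9 reads) in Diabetes. This was the largest decrease of the 43 genes, 6.39-fold, with a log2 ratio of -2.68 (95% interval, -3.90 to -1.63, exact binomial FDR 1.87e-08). Tlr3, which senses double-stranded RNA, was at 4.77 and 2.22 TPM (49 and 30 reads). With a log2 ratio of -1.10 (95% interval, -1.81 to -0.42) it missed the FDR threshold in the exact test, at 0.0022, and was called lower after TMM scaling, at -1.36. Tlr5, the flagellin receptor, was at 1.46 and 3.11 TPM (15 and 42 reads), a log2 ratio of 1.09 (95% interval, 0.21 to 2.05) with an FDR of 0.021 in the exact test. The 3 receptors thus did not move in 1 direction.

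Among the 3 adaptors and 3 IRAK genes beneath these receptors 1 rose and 0 fell as deposited, and 0 were called after TMM scaling. Over all genes 22.9% were called higher as deposited, and 14.9% higher and 13.4% lower after TMM scaling. Myd88, the adaptor of most Toll-like receptors and of the interleukin-1 receptor, rose from 8.95 TPM (92 reads) to 14.4 TPM (195 reads), 1.61-fold. Its log2 ratio was 0.69 (95% interval, 0.32 to 1.06, exact binomial FDR 3.69e-04), and 0.44 after TMM scaling, where it was not called. Tirap, which brings Myd88 to the membrane, was at 1.75 and 3.11 TPM (18 and 42 reads). Ticam1, the adaptor of Tlr3, was at 4.57 and 5.03 TPM (47 and 68 reads), a log2 ratio of 0.14 that was -0.11 after TMM scaling. Irak1 was at 4.18 and 7.62 TPM (43 and 103 reads) and Irak4 at 2.33 and 4.52 TPM (24 and 61 reads). Both kinases act directly after Myd88, and with log2 ratios of 0.87 for Irak1 and 0.96 for Irak4 the exact test gave FDRs of 0.0020 and 0.012, so neither was called. Irak1bp1, a binding partner of Irak1, was at 1.65 and 1.26 TPM with 17 reads in each library.

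In the TNF receptor superfamily 1 of 6 genes rose, 16.7% against 22.9% of all genes, and 0 fell. Tnfrsf1a, the main receptor for TNF and the most abundant of the 43 genes, was at 45.1 TPM (464 reads) in Normal and at 70.8 TPM (957 reads) in Diabetes. It was 1.57-fold higher, with a log2 ratio of 0.65 (95% interval, 0.49 to 0.81, exact binomial FDR 3.45e-15). After TMM scaling the log2 ratio was 0.40, which is under 1.5-fold. Tnfrsf11b, which encodes the secreted decoy receptor osteoprotegerin, was at 20.2 and 19.1 TPM (208 and 258 reads), with a log2 ratio of -0.08 (95% interval, -0.35 to 0.19). Tnfrsf12a, the receptor of the cytokine TWEAK, was at 5.84 and 4.52 TPM (60 and 61 reads). A pair of death receptor genes were higher in level without being called. Tnfrsf10b, the TRAIL receptor, was at 1.36 and 3.04 TPM (14 and 41 reads), a log2 ratio of 1.16 (95% interval, 0.25 to 2.15). Tnfrsf21, also called death receptor 6, was at 0.78 and 1.63 TPM (8 and 22 reads), with a 95% interval of -0.16 to 2.44. Tnfrsf4, a receptor of activated T cells, was at 1.07 and 1.41 TPM (11 and 19 reads). Tnfrsf1b was not analysed here.

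**Figure D3:**
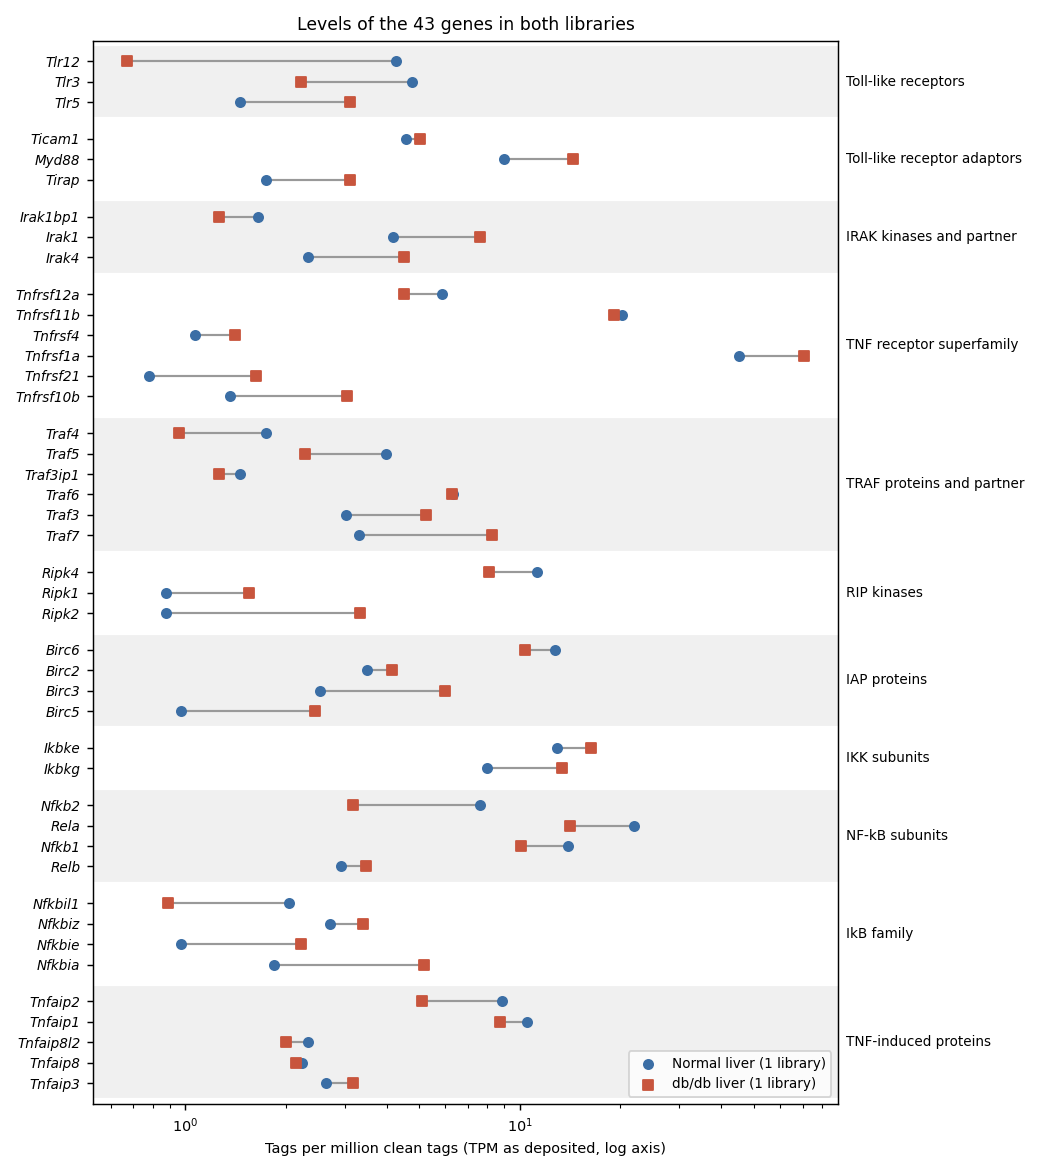
Deposited TPM of each of the 43 genes (log axis) in Normal (blue circles) and Diabetes (red squares), 1 library per group, grouped by role. Tnfrsf1a is the most abundant in both libraries, at 45.1 and 70.8 TPM, and 27 of the 43 genes average below 5 TPM.

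TRAF proteins link the receptors to the kinases. Traf7, a ubiquitin ligase with a WD repeat domain in place of the usual TRAF domain, rose from 3.31 TPM (34 reads) to 8.29 TPM (112 reads), a 2.50-fold increase. Its log2 ratio was 1.32 (95% interval, 0.76 to 1.92, exact binomial FDR 2.34e-06), and 1.07 after TMM scaling, where it alone of the 43 genes was still called higher. Traf6, the ligase used by Toll-like and interleukin-1 receptors, was at 6.32 and 6.29 TPM (65 and 85 reads), with a log2 ratio of -0.01 (95% interval, -0.49 to 0.48). Traf3, a brake on the non-canonical pathway, was at 3.02 and 5.26 TPM (31 and 71 reads), a log2 ratio of 0.80 (95% interval, 0.17 to 1.46). Traf5 was at 3.99 and 2.29 TPM (41 and 31 reads), a log2 ratio of -0.80 (95% interval, -1.52 to -0.09), and was not called. Traf4, known for roles in development, was at 1.75 and 0.96 TPM (18 and 13 reads). Traf3ip1, a ciliary protein that binds Traf3, was at 1.46 and 1.26 TPM (15 and 17 reads). Traf1 and Traf2 were not analysed here.

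Of the RIP kinases Ripk2, which signals for the intracellular NOD receptors, rose from 0.88 TPM (9 reads) to 3.33 TPM (45 reads). This was the largest increase of the 43 genes, 3.78-fold, with a wide interval (log2 ratio 1.92, 95% interval 0.88 to 3.15, exact binomial FDR 1.44e-04). After TMM scaling its log2 ratio was 1.67 and the exact test gave an FDR of 0.0018, so it was not called. Ripk1, the kinase of TNF receptor complexes and of necroptosis, was at 0.88 and 1.55 TPM (9 and 21 reads), a log2 ratio of 0.82 with a 95% interval of -0.36 to 2.14. Ripk4, best known in keratinocytes, was at 11.3 and 8.07 TPM (116 and 109 reads). Its log2 ratio of -0.48 was not called, and the -0.74 after TMM scaling was.

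Among the inhibitor of apoptosis (IAP) genes, Birc3 rose from 2.53 TPM (26 reads) to 6.00 TPM (81 reads), 2.37-fold. Birc3 encodes a ubiquitin ligase of TNF receptor complexes and is a known NF-kB target, and its log2 ratio was 1.25 (95% interval, 0.59 to 1.94, exact binomial FDR 1.65e-04). After TMM scaling it was 0.99 and not called. Its close paralog Birc2 was at 3.50 and 4.15 TPM (36 and 56 reads), a log2 ratio of 0.25 that was -0.0071 after TMM scaling. Birc6, a very large ubiquitin-conjugating protein, was at 12.8 and 10.4 TPM (131 and 140 reads). Birc5, or survivin, a protein of dividing cells, was at 0.97 and 2.44 TPM (10 and 33 reads), a log2 ratio of 1.33 (95% interval, 0.27 to 2.51) that was not called. Of 3 listed genes of cycling cells, Ccnb2 was at 0.58 and 2.29 TPM (6 and 31 reads) and Bub1b at 0.68 and 1.70 TPM (7 and 23 reads). Mki67 was at 1.65 and 1.48 TPM (17 and 20 reads). Of these 0 were called, against 31.0% of all genes.

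The TNF-induced proteins share a history of discovery rather than a function. As deposited 0 of the 5 were called, against 31.0% of all genes. Tnfaip2, an exocyst-like protein, was at 8.85 and 5.11 TPM (91 and 69 reads). With a log2 ratio of -0.79 (95% interval, -1.27 to -0.33) it missed the FDR threshold in the exact test, at 0.0015, and was called lower after TMM scaling, at -1.05. Tnfaip3, the ubiquitin-editing brake on NF-kB, was at 2.63 and 3.18 TPM (27 and 43 reads), a log2 ratio of 0.27 (95% interval, -0.45 to 1.03). Its sign turned under median-ratio scaling. Tnfaip1, an adaptor of a cullin ubiquitin ligase, was at 10.5 and 8.74 TPM (108 and 118 reads). Tnfaip8 was at 2.24 and 2.15 TPM (23 and 29 reads), and its relative Tnfaip8l2, a restraint on immune cell activation, at 2.33 and 2.00 TPM (24 and 27 reads).

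Several of these genes are both parts and targets of the pathway. A kappaB motif, the 10-base consensus bound by NF-kB, was therefore searched on both strands in the RefSeq promoters (GRCm38.p6), from 250 bases before the start of transcription to 50 after it. Promoters were found for 35 of the 43 genes. At least 1 match was held by 9 of the 35, 25.7%, against 12.2% of the 6623 listed genes with a promoter. Counted by promoter, 12 of the 46 promoters of these genes held a match, 26.1% against 8.46% of all promoters in the table. The 9 genes were Birc5, Irak1, Nfkb2, Nfkbia, Nfkbie, Tlr3, Tnfaip2, Tnfaip3 and Traf3. Their log2 ratios ran from -1.26 (Nfkb2) to 1.49 (Nfkbia), with 6 above 0 and 3 below. Of the 9, 1 was called higher and 1 lower, against 22.9% and 8.19% of all genes. Genes with a match thus did not share a direction. The 250 bases before the start are given for Nfkbia and Nfkb2, which were called in opposite directions, and for Tnfaip3, with matches in capitals. A match is a run of letters and not a shown site of binding.
Nfkbia promoter: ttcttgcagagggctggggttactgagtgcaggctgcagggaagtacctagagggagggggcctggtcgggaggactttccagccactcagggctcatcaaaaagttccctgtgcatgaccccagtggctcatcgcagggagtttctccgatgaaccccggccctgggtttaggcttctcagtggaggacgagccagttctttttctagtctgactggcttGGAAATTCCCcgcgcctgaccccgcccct
Nfkb2 promoter: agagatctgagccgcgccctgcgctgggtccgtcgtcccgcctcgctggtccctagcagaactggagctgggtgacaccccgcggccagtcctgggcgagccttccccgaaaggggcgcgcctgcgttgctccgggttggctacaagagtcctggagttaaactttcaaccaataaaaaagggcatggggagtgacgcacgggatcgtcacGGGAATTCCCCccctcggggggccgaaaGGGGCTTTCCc
Tnfaip3 promoter: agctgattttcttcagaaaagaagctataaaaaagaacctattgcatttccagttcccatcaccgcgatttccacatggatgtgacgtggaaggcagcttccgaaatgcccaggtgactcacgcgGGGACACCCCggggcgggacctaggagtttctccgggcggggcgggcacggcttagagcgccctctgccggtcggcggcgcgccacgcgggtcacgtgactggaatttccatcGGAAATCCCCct
The Nfkbia stretch lies at chr12:55492648-55492897 on the minus strand, with its match beginning 29 bases before the start. The Nfkb2 stretch lies at chr19:46304487-46304736 on the plus strand and holds 3 matches, of which the first pair overlap, between 39 and 11 bases before the start. Nfkb2 has other searched promoters that also hold matches. The Tnfaip3 stretch lies at chr10:19015411-19015660 on the minus strand, with matches that begin 125 and 12 bases before the start.

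The wider pathway was followed in 5 lists of genes outside the 43, in which Il1b stands both as a ligand and as a target. Among ligands and pattern sensors 12 of 30 were listed, 3 fell and 0 rose, 25.0% and 0% against 8.19% and 22.9% of all genes, with a median log2 ratio of 0.15. Il33, an alarmin of the interleukin-1 family, fell from 35 to 9 reads (log2 ratio -2.35, 95% interval -3.60 to -1.27). Il1b, the macrophage cytokine, fell from 33 to 11 reads (log2 ratio -1.99, 95% interval -3.11 to -0.96). Other genes of that family went the other way without being called. Il1a was at 8 and 33 reads (log2 ratio 1.65, 95% interval 0.51 to 2.98) and Il18 at 62 and 121 reads. Ly86, a partner of a Toll-like receptor homolog on B cells and macrophages, fell from 58 to 29 reads. The genes for sensing lipopolysaccharide were not called under any scaling, with Lbp at 13.3 and 15.0 TPM, Ly96 at 5.25 and 7.33 TPM and Cd14 at 2.63 and 2.89 TPM. Tnf and Tlr4 were not analysed here.

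Among the receptors outside the 43, of which 5 of 13 were listed, 1 rose and 1 fell, 20% each against 22.9% and 8.19% of all genes. Il1r1, the interleukin-1 receptor that signals through Myd88, fell from 181 TPM (1861 reads) to 50.4 TPM (681 reads). Its log2 ratio was -1.84 (95% interval, -1.97 to -1.72), and -2.10 after TMM scaling. Ltbr, a receptor that feeds the non-canonical pathway, was at 14.0 TPM (144 reads) and rose to 29.8 TPM (402 reads), with a log2 ratio of 1.09 (95% interval, 0.81 to 1.37) that was 0.83 and still called after TMM scaling. The median log2 ratio of the 5 was 0.22. Ltbr was higher and Nfkb2 lower in the same library.

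Of 47 signalling proteins outside the 43, 33 were listed, 7 rose and 5 fell, 36.4% called against 31.0% of all genes, with a median log2 ratio of 0.25. Irf7 and Irf5, transcription factors of the interferon response, fell by 1.56 and 1.26 on the log2 scale. Skp1a and Commd1, parts of the machinery that degrades IkB and RelA, rose with log2 ratios of 1.30 and 1.25. Cyld, a deubiquitinase that restrains NF-kB, rose from 23 to 73 reads (log2 ratio 1.27, 95% interval 0.58 to 2.02), but was not called under any of the 3 other scalings. After TMM scaling 6 of the list were called higher and 6 lower, 18.2% each against 14.9% and 13.4% of all genes. In the MAP kinase arm 11 of 18 were listed, 1 rose and 0 fell, 9.09% called against 31.0% of all genes, and the median log2 ratio was 0.36. After TMM scaling 1 was called higher and 1 lower, 9.09% each against the same 14.9% and 13.4%. Map2k3, the kinase above the MAP kinase Mapk14, rose from 21.6 to 59.4 TPM (222 and 803 reads), a log2 ratio of 1.46 (95% interval, 1.24 to 1.68).

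Of 39 known NF-kB targets outside the 43, 16 were listed. Of these 3 rose and 2 fell, with a median log2 ratio of -0.20. After TMM scaling 3 were called in each direction, 18.8% each against 14.9% of all genes higher and 13.4% lower. The 31.2% called as deposited lay at the 31.0% of all genes. Lcn2, an iron-binding protein of the acute phase, was at 16.7 TPM (172 reads) and rose to 71.6 TPM (967 reads), with a log2 ratio of 2.10 (95% interval, 1.86 to 2.34). Gadd45b, a stress response gene, rose from 6 to 40 reads, and Sod2, the mitochondrial superoxide dismutase, from 130 to 349 reads. Saa3, an acute-phase protein, was at 18.4 TPM (189 reads) and fell to 5.48 TPM (74 reads), with a log2 ratio of -1.75 (95% interval, -2.15 to -1.35). The other gene that fell was Il1b. Hp, the most abundant of the 16, was at 1427 and 1002 TPM, a log2 ratio of -0.51 that was not called as deposited. Each of the 3 other scalings called it lower. The adhesion gene Icam1 was at 6.81 and 6.66 TPM (70 and 90 reads). The chemokine gene Ccl2 was at 3.41 and 3.04 TPM (35 and 41 reads), and neither was called.

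Markers of other liver cells moved between the libraries as well, and in whole liver fewer cells of a type and less RNA per cell cannot be told apart. Of 17 markers of Kupffer cells and macrophages 13 were listed, 7 fell and 1 rose, 53.8% lower against 8.19% of all genes. After TMM scaling 9 of the 13 were called lower and 0 higher, 69.2% and 0% against 13.4% and 14.9% of all genes. Their summed level was 484 TPM in Normal and 287 TPM in Diabetes (log2 ratio -0.75, 95% interval -0.81 to -0.69). The most abundant were C1qa, which fell from 176 to 50.7 TPM, Cd5l at 64.7 and 62.9 TPM, and C1qb at 38.1 and 57.8 TPM, which was called higher as deposited but under none of the 3 other scalings. The Kupffer cell marker Clec4f was at 1.46 and 1.11 TPM with 15 reads in each library, and none of the 13 was at 0. Of the 43 genes, the 3 called lower as deposited went in the direction of most of this list, and the 7 called higher went the other way. Summed hepatocyte markers were lower too, with a log2 ratio of -0.72, led by Apoa1, which fell from 14668 to 2875 TPM. Of the 9 listed hepatocyte markers 3 were called lower and 1 higher, 33.3% and 11.1% against 8.19% and 22.9% of all genes. Their median log2 ratio was -0.10. The part that macrophages played in any of these results was not tested. Summed markers of sinusoidal endothelial cells, 11 of 12 listed, were at 170 and 151 TPM, led by Clec4g, which fell from 47.7 to 30.6 TPM, Stab2 at 20.1 and 17.5 TPM, and Kdr, which rose from 12.0 to 22.1 TPM but was not called under median-ratio scaling.

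The remaining marker lists were short or mixed. Stellate cell markers, 8 of 12 listed, summed to 138 and 189 TPM, led by Dcn at 56.9 and 84.4 TPM, Col3a1 at 29.6 and 41.7 TPM and Colec11 at 20.7 and 29.2 TPM. The 3 listed cholangiocyte markers summed to 61.5 and 107 TPM, nearly all of it Spp1, which rose from 57.2 to 103 TPM but was not called under median-ratio scaling, beside Epcam at 3.21 and 3.04 TPM and Krt7 at 1.07 and 1.18 TPM. Among B cell markers Cd74, shared by all cells with MHC class II, was at 93.3 and 152 TPM and was called higher as deposited but under none of the 3 other scalings. Cd79b, part of the B cell receptor, had 48 and 33 reads, was not called as deposited and was called lower under each of those scalings. For T and NK cells 2 markers were listed. Zap70 rose from 6.13 to 35.6 TPM (63 to 481 reads), and Cd3d was at 1.95 and 1.55 TPM (20 and 21 reads). S100a9, the only listed marker of monocytes and neutrophils, had 24 and 41 reads. The hepatocyte genes were abundant as labelled for liver, with Alb at 6801 and 6912 TPM and Ahsg at 3895 and 3930 TPM, while Apoa1 fell from 14668 to 2875 TPM and with it the sum of the list.

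**Figure D4:**
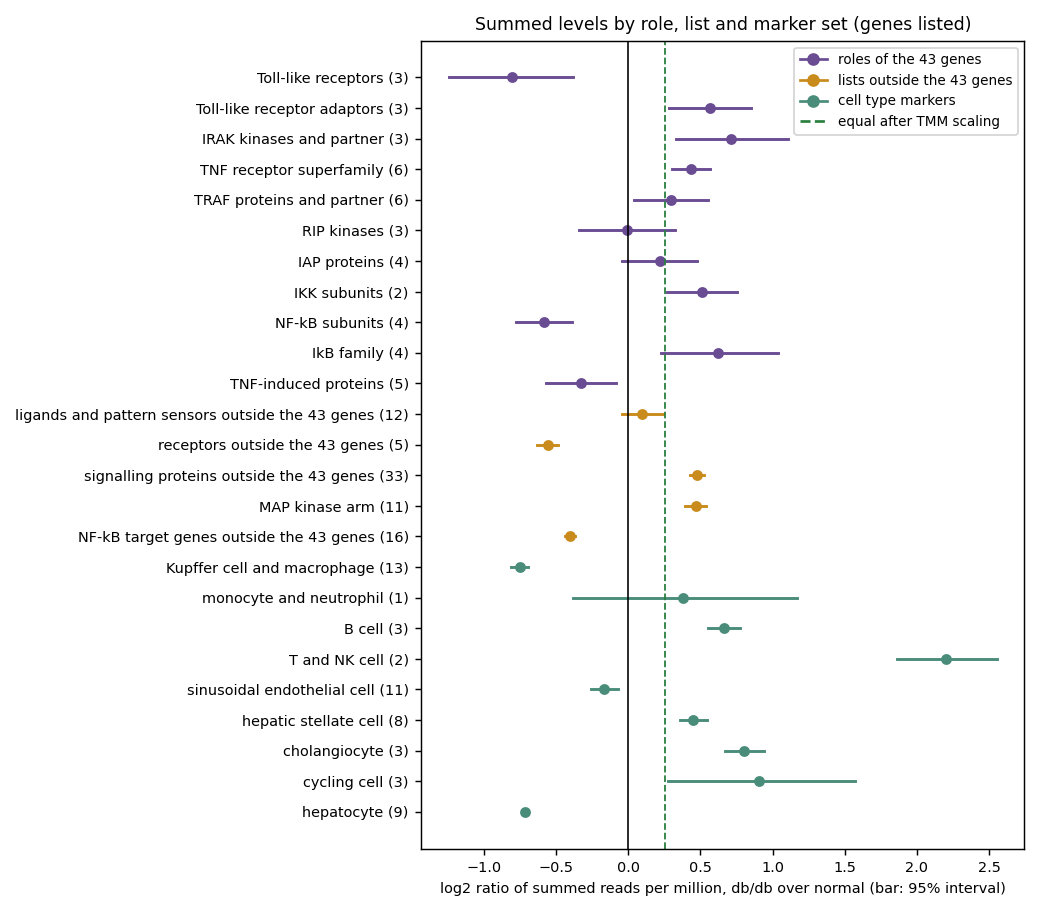
Log2 ratio of the summed level (reads scaled by clean tags), Diabetes over Normal, for the roles of the 43 genes (purple), the lists outside them (ochre) and the cell type markers (green), with the number of genes listed in brackets; bars are 95% intervals of counting error and the dashed line is equality after TMM scaling. NF-kB subunits, at -0.59, lie left of 0, as do Toll-like receptors at -0.81, Kupffer cell and macrophage markers at -0.75, hepatocyte markers at -0.72 and other lists. A sum follows the most abundant genes of its list, such as Apoa1 for hepatocytes, Il1r1 for receptors and Hp for NF-kB targets. The interval of the IkB family, 0.22 to 1.03 around 0.62, holds the dashed line.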

How the data were processed

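Liver tags were measured in 1 library of normal mice and 1 of db/db mice, grouped by their titles. The authors isolated poly(A) RNA, cut the cDNA with DpnII, sequenced the tags, removed adaptors, compared high quality clean tags with RefSeq (genome build mm9 per the labels) and normalized each gene to TPM. The deposited values, headed TPM, are RPM values with 2 decimals and 0.01 in place of 0, and the authors left out genes with a mean under 1. The aligner and the handling of shared tags are not given in the sources used here. No other per-sample column was present.

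The equal spacing of the values gave the reads, and 8513 of 8513 values above the placeholder in Normal and 8536 of 8537 in Diabetes were whole within 0.1 read. Per gene, a two-sided exact binomial test on reads, given both totals, was adjusted by Benjamini-Hochberg over 8551 genes, and fold changes came from the deposited values. As the values are not counts, this test rests on the computed reads and compares libraries. Intervals are 95% Clopper-Pearson for ratios and Wilson for shares. They cover counting error only, since tags lack molecular identifiers. The test was checked on simulated reads that held counting error only, so variation between animals was not part of that check. A gene at 3 reads or fewer would be set to 3 reads, which applied to none of the genes named.

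The 43 genes and all lists were chosen with earlier results of these data known. Every one of the 43 is named. Of each other list the up to 5 called genes with the largest absolute log2 ratio are named, with Chuk, Cd14, Lbp, Ly96 and Il1r1, and of each marker list the 3 most abundant, except for 1 marker and 1 tag that are not reported here. Icam1, Ccl2, Clec4f, Il1a, Il18 and Hp were named in addition after their values were seen, and roles were assigned from gene symbols. Alternatives were 3 scalings (sum of listed genes, TMM trimming 30% of log ratios and 5% of abundances, median ratio over genes averaging 10 TPM or more), a fold of 2, only genes averaging 5 TPM or more, 0.1 or 1 TPM added before the log, an FDR of 0.05 and the Audic-Claverie test. Tags and promoters came from GENCODE M21 and RefSeq on GRCm38, and no coordinate was taken from or converted to mm9. Statistics ran in scipy 1.17.1 under Python 3.11.15, tables in pandas 2.3.3 with numpy 2.4.6, and plots in matplotlib 3.10.9.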

Additional observations from a re-analysis of the deposited data

How the results depend on the processing

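Under scaling to the sum of the listed genes, TMM scaling and median-ratio scaling alike, the 10 called genes became 8, with 1 higher in place of 7 and 7 lower in place of 3. These scalings took 0.26, 0.25 and 0.31 off each log2 ratio, which is their construction. Of the 7 genes called higher only Traf7 kept its call, and the 3 called lower kept theirs. The median log2 ratio of the 43 genes, 0.25 as deposited, was -0.0063, 0.00024 and -0.053 in the same order. The log2 ratio of Ticam1 was -0.12, -0.11 and -0.17, and that of Birc2 -0.014, -0.0071 and -0.060. Relb was at -0.0063 and -0.053 under the first and the last, and Tnfaip3 at -0.032 under the last. With a mean of at least 5 TPM 16 of the genes were left, 6 were called, 4 of them higher, and the median was -0.17, while called ligands went from 3 to 0 and called NF-kB targets from 5 to 3. A fold of 2 left 6 called genes, 4 of them higher, and 7 of 12 signalling proteins. An FDR of 0.05 gave 21 called genes, 14 higher and 7 lower. Called genes of the MAP kinase arm went from 1 to 2 under each scaling and to 3 at an FDR of 0.05. With a pseudocount of 0.1 or 1 TPM and with the Audic-Claverie test 10 genes were called, 7 higher and 3 lower, as in the deposited values. The low read numbers limit what can be called: 15 of the 33 genes not called differed at least 1.5-fold, and a p that misses the threshold does not show equality. No paired analysis was possible because there is 1 library per group.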
